A study of Mus musculus with 4 samples.

Results

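The genes described here are 30 components of the JAK-STAT pathway, the route by which cytokine and interferon receptors signal to the nucleus. They are 4 JAK kinases, 6 STAT factors, 8 SOCS family inhibitors (Cish included), 4 PIAS proteins, 4 interferon receptor chains and 4 tyrosine phosphatases. They are listed by gene name, with earlier results of these data known, and are read by 76 of the 34945 probe sets that carry a single gene symbol, of which 71 lay above the intensity filter. All 30 genes were tested, among 13916 genes in all. RNA came from mouse leukemia cells driven by the MLL-AF9 fusion, which were isolated from bone marrow of C57BL/6 recipients. The labels give 2 samples as Ezh2 KO and 2 as wild type (WT), each hybridised to an Affymetrix array of its own. Both groups carry MLL-AF9. Ezh2 is the histone H3 methyltransferase of the Polycomb complex PRC2. The labels are at odds over the KO samples, since a further entry says that the marrow given to those recipients lacked Ink4a and Arf. The entry for the other group gives wild-type marrow. How Ezh2 was deleted, how MLL-AF9 was delivered and how the cells were purified are not given in the sources used here. No label ties the arrays of a group to separate leukemias or mice, so the p-values measure the spread among these arrays alone, and that spread may be technical.

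In this pathway a cytokine brings receptor chains together, and the JAK kinases bound to their tails phosphorylate each other, the receptor and the STAT factors. Phosphorylated STATs pair, enter the nucleus and bind DNA, STAT2 together with Irf9 at interferon-stimulated response elements and other STATs at gamma-activated sequences. SOCS proteins, several of which are themselves STAT targets, block JAKs or mark receptor complexes for degradation. PIAS proteins restrain STATs at the DNA, and phosphatases remove the phosphates. In myeloid progenitors the pathway carries the signals of interleukin-3, GM-CSF, G-CSF and the interferons.

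The deposited values are linear intensities, scaled by the authors so that every array had the same trimmed mean. Log2 intensities of the 13916 genes correlated at 0.986 between the KO arrays and 0.985 between the WT arrays, and at 0.977 to 0.979 across groups, which describes the arrays only, since genes are not independent replicates. The only Ezh2 probe set gave 4989 and 4991 units on the KO arrays and 5216 and 5315 on the WT arrays (log2 change -0.077, limma adjusted p = 0.484). Where it lies relative to the deleted part is not known here, so it checks nothing about the labels. Cdkn2a, the gene of Ink4a and Arf, gave 41.2 and 22.0 units in KO and 21.6 and 22.0 in WT, near the filter of 19.96 in both groups. All 16 markers listed for MLL-AF9 myeloid leukemia lay above the filter, Mpo and Hoxa9 among them. Of these 16, Itgam, Cd33 and Hoxa10 were called higher in KO and Ms4a3 and Ctsg lower. That is 31.25% called, against 11.6% of all tested genes. Of other cell types, 3 of 6 T cell markers lay above the filter (Cd3d, Cd3g and Cd4 did not). So did 1 of 5 NK cell, 5 of 6 B cell, 2 of 4 erythroid and 4 of 5 megakaryocyte markers. The same held for 7 of 10 macrophage and dendritic cell and 8 of 9 stroma and endothelium markers. Being above the filter says little of the level. In these lists the mean levels above it ran from 21.4 units (Cd3e) to 3601 (Csf1r). In the leukemia list they ran from 143 (Flt3) to 33230 (Mpo). The highest B cell marker was Cd79b, at 777 units. The summed levels of the T, NK, B, erythroid, macrophage and stroma lists overlapped between the groups. Within the macrophage list Csf1r was called higher and Cd68 lower in KO. The megakaryocyte markers summed to 524 to 610 units in KO and 380 to 403 in WT. Among them Gp9 and Gp1bb had KO above WT, while Pf4, Itga2b and Ppbp overlapped. None of the 4 tested was called. The mast cell, basophil and eosinophil markers summed to 2881 to 3239 units in KO and 1248 to 1333 in WT, with Cpa3 and Prg2 called higher, while Mcpt8, Epx and Cma1 had KO values below both WT values. The part of these markers in the results was not tested.

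Of the 30 genes, Socs5, Socs6, Socs7 and Jak2 rose in KO cells, by 1.23-fold to 1.62-fold, and none passed the threshold as lower. The 4 rises are 13.3% of the genes, where 5.55% of all tested genes were called higher. No fall was called, where 6.01% of all tested genes were called lower, and 11.6% of tested genes were called in either direction. With each array centred on its median, 402 of all genes were called higher and 1014 lower, in place of 772 and 836, and of the 30 genes 1 was higher (Socs5) and 1 lower (Socs1). The share called in either direction is near that of all genes, and the count of 4 is too small to read more from its direction. The median log2 change of the 30 genes was 0.017, and that of all tested genes 0.0066. Groups of arrays did not overlap for 17 of the 30 genes, 11 with KO above WT and 6 below. Over all tested genes the groups did not overlap in 52.5%, with 26.2% above and 26.2% below. In these bulk samples fewer cells of a type and less RNA per cell cannot be told apart.

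The number of called genes depended on the arrays. It was 2 without KO replicate 1, 3 without KO replicate 2, 2 without WT replicate 1 and 1 without WT replicate 2. Socs5 was called in each of these fits. Of the 26 genes that did not pass, 22 had a 95% interval within 1.5-fold either way and 24 within 2-fold. The 4 genes outside the narrower bound were Stat2, Socs1, Socs2 and Socs3.

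**Figure D1:**
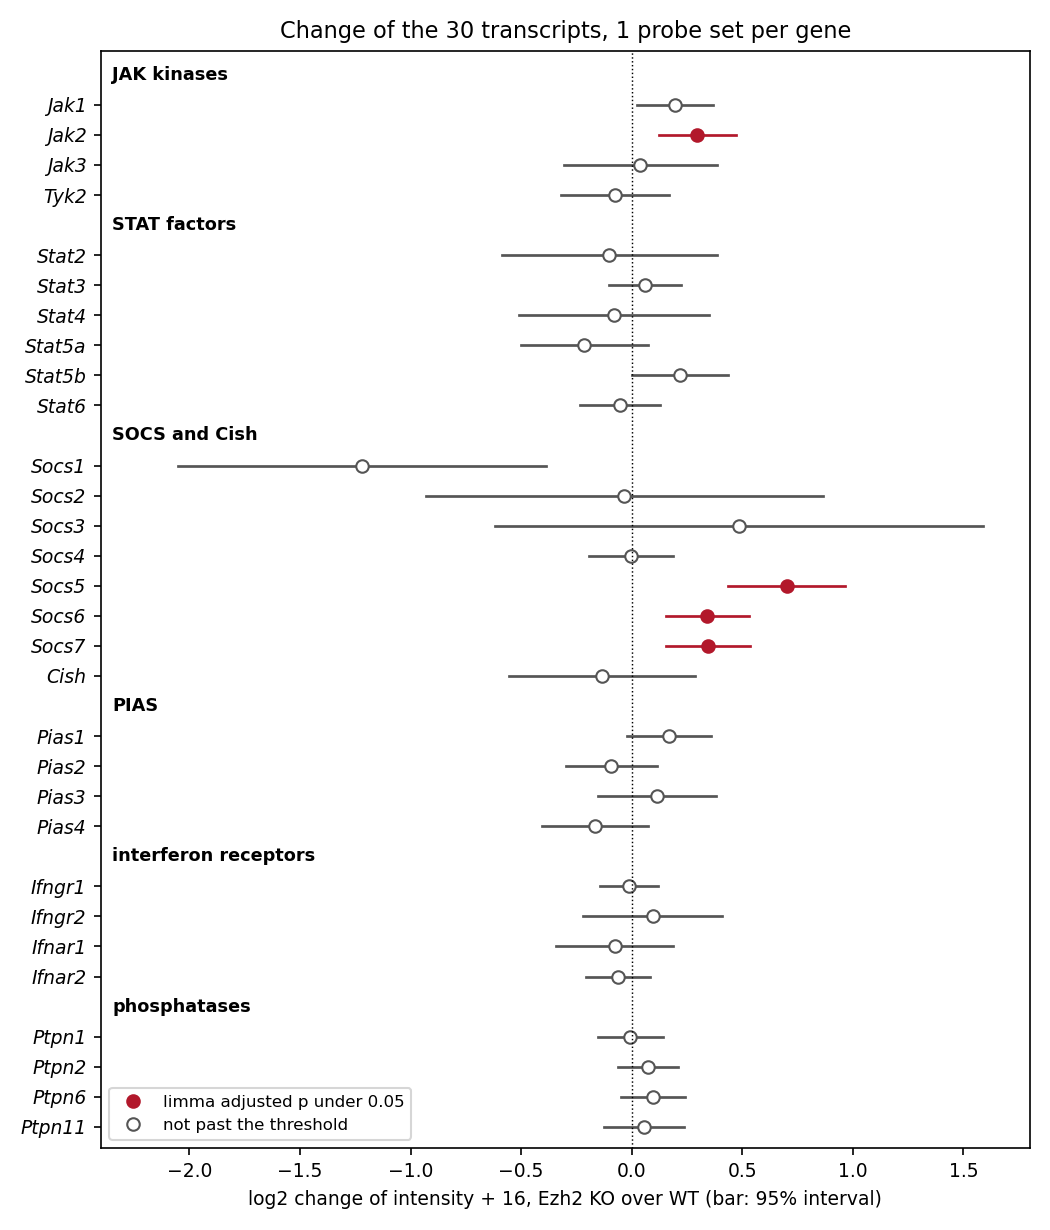
Log2 change of intensity plus 16 between 2 Ezh2 KO and 2 WT arrays for each of the 30 genes, 1 probe set per gene, with 95% intervals from limma. The 4 filled genes, Jak2, Socs5, Socs6 and Socs7, passed an adjusted p of 0.05, and Socs1 has the lowest value, -1.22, with an open point.

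Of the JAK kinases, Jak2 rose in KO cells. Jak2, the kinase of the receptors for interleukin-3, GM-CSF, erythropoietin and interferon-gamma, gave 1402 and 1363 units on the KO arrays and 1142 and 1103 on the WT arrays. Both KO values lay above both WT values. The log2 change was 0.30 (SE 0.077, limma adjusted p = 0.0365, 1.23-fold). The call did not hold in any fit that left out an array (log2 changes 0.28 and 0.32 without KO replicate 1 or 2, 0.32 and 0.27 without WT replicate 1 or 2, adjusted p 0.06 to 0.13). It was also lost with median centring (0.20, adjusted p = 0.292) and with averaged probe sets (0.25, adjusted p = 0.189). A second Jak2 probe set read 660 and 529 units in KO and 578 and 449 in WT, a log2 change of 0.21 with overlapping groups.

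Jak1, used by interferon receptors and by receptors of the interleukin-6 family, gave 3001 and 2654 units in KO and 2426 and 2500 in WT. The groups did not overlap, the log2 change was 0.20 (95% interval 0.025 to 0.37) and the adjusted p was 0.141. Without KO replicate 2 the Jak1 value was 0.28 and passed (adjusted p = 0.0343). All 3 Jak1 probe sets had positive values, 0.091 to 0.20. Jak3, the kinase of the common gamma chain, had a log2 change of 0.038, and Tyk2, which binds the type I interferon receptor, -0.076. Both had overlapping groups.

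None of the 6 STAT factors passed the threshold. Their log2 changes ran from -0.21 to 0.22, and every 95% interval lay between -0.59 and 0.43. The closely related Stat5a and Stat5b, which lie next to each other on chromosome 11 and carry interleukin-3 and GM-CSF signals, had values of opposite sign. Stat5b gave 831 and 806 units in KO and 737 and 668 in WT, with no overlap (log2 change 0.22, SE 0.096, adjusted p = 0.196). Stat5a gave 562 and 515 units in KO and 557 and 704 in WT, with overlap (log2 change -0.21, SE 0.13, adjusted p = 0.354). Each had a further probe set with the same sign, 0.24 for Stat5b and -0.20 for Stat5a. As the genes are near-identical in sequence, probes may be shared between their transcripts, and the difference between their changes was not tested.

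Stat2, the partner of Irf9 in the type I interferon response, gave 136 and 116 units in KO and 133 and 139 in WT. These values overlap, and the log2 change was -0.10 (95% interval -0.59 to 0.39). Stat3, the factor of interleukin-6 and G-CSF, gave 2209 and 2071 units in KO and 1993 and 2109 in WT, a log2 change of 0.061. All 4 Stat3 probe sets had positive values, up to 0.35 (adjusted p = 0.122 among all probe sets). Stat6, activated by interleukin-4, gave 1033 and 1039 units in KO and 1087 and 1065 in WT. Those groups did not overlap, but the difference was small, at -0.054. Stat4, activated by interleukin-12, had a log2 change of -0.082 with overlapping groups.

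**Figure D2:**
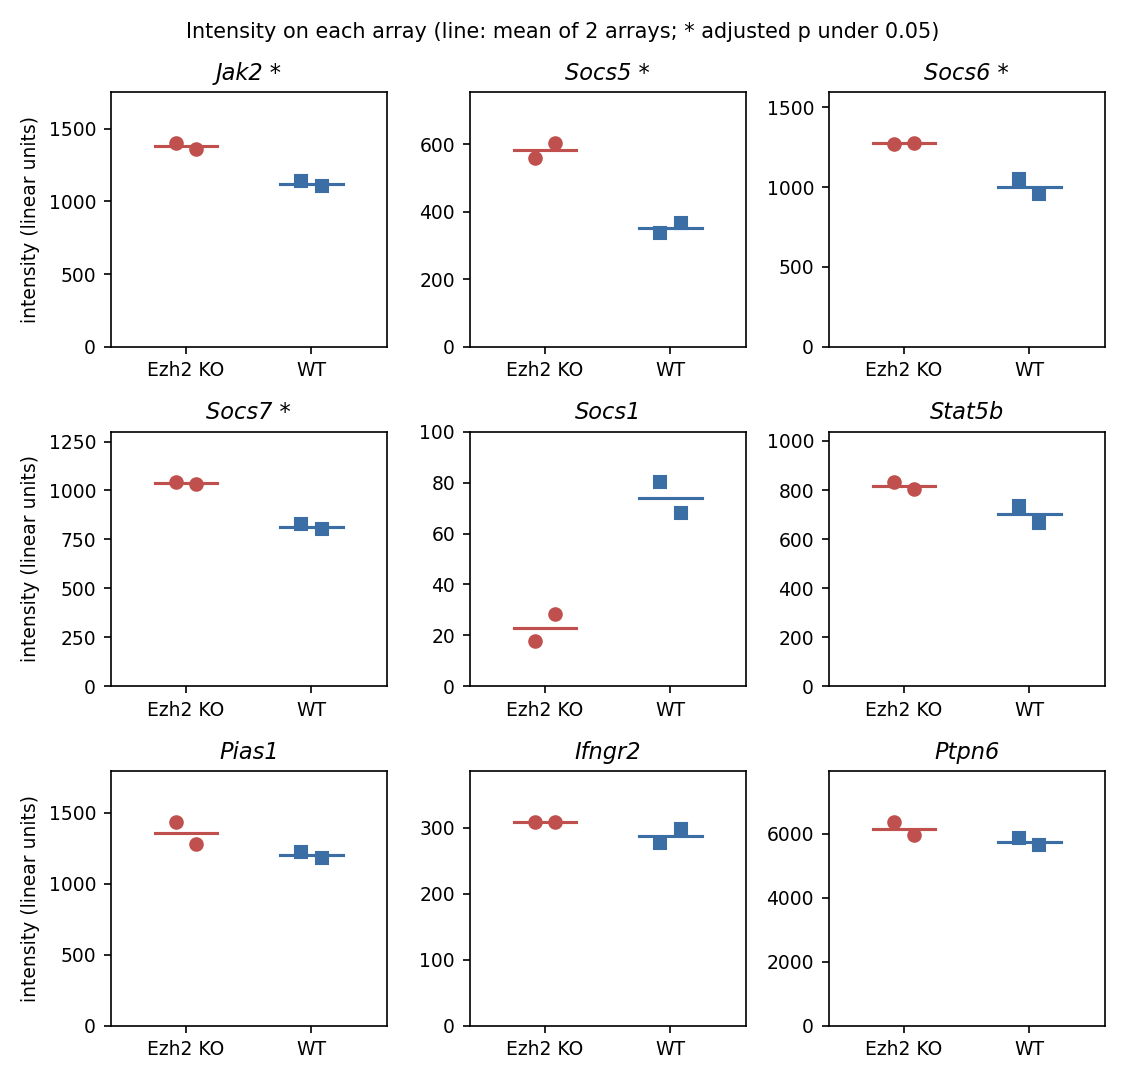
Intensity of 9 genes on each array, with Ezh2 KO to the left of WT and the mean of 2 arrays as a line. For Jak2, Socs5, Socs6 and Socs7, marked with a star, the 2 KO points lie above the 2 WT points, while for Socs1 they lie below, at 17.7 and 28.2 against 80.1 and 68.0.

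The SOCS family held 3 of the 4 called genes and also the gene with the lowest value. The 3 are 37.5% of its 8 genes, against 11.6% of all tested genes, a share that rests on few genes. Socs5, Socs6 and Socs7 rose in KO cells, by 1.62-fold, 1.27-fold and 1.27-fold. Socs1 had the lowest log2 change of the 30 genes but did not pass. Socs5, whose product is known to act on the EGF receptor and on JAKs, gave 560 and 603 units in KO and 337 and 367 in WT. The groups lay far apart relative to the spread within them, with a log2 change of 0.70 (SE 0.12, 95% interval 0.43 to 0.97, adjusted p = 0.0047). Leaving out any array kept the call, with values from 0.64 to 0.76, and a single prior variance for all genes ended it (adjusted p = 0.109). The further Socs5 probe set gave 287 and 246 units in KO and 197 and 241 in WT, a smaller difference of 0.27 that did not pass (adjusted p = 0.421).

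Socs6, an inhibitor of the receptor kinase Kit, gave 1272 and 1276 units in KO and 1047 and 958 in WT. The KO arrays differed by less than the WT arrays did, and the groups did not overlap. The log2 change was 0.34 (SE 0.083, adjusted p = 0.0276), and without WT replicate 2 it was 0.28 and did not pass (adjusted p = 0.126). Both further Socs6 probe sets also had KO above WT, at 0.44 and 0.37 (adjusted p 0.0697 and 0.407 among all probe sets).

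Socs7, a family member that binds adaptor proteins such as Nck, gave 1041 and 1035 units in KO and 829 and 801 in WT. The log2 change was again 0.34 (SE 0.084, adjusted p = 0.0287). In each fit without 1 array it stayed between 0.32 and 0.37 but missed the threshold, with adjusted p from 0.0656 to 0.107. Of the 3 further Socs7 probe sets 1 ran the same way (0.32) and 2 the other way (-0.21 and -0.35), the last with 54.3 and 8.55 units in KO and 44.7 and 30.5 in WT. Averaged over all its probe sets Socs7 had a log2 change of 0.026 (adjusted p = 0.949). With each array centred on its median, neither Socs6 nor Socs7 passed (both 0.25, adjusted p 0.188 and 0.209), and Socs6 also missed the threshold when its probe sets were averaged (0.39, adjusted p = 0.0664).

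Socs1, which blocks JAKs after interferon-gamma and is induced by it, is described because its value was the lowest of the 30, a choice made after seeing the values. It gave 17.7 and 28.2 units in KO and 80.1 and 68.0 in WT. Both KO values lay below both WT values, and the lower KO value was below the filter of 19.96. The log2 change on the scale of intensity plus 16 was -1.22 (SE 0.37, 95% interval -2.05 to -0.39), with an adjusted p of 0.0647. It passed with quantile normalization (-1.31, adjusted p = 0.0466) and with median centring (-1.32, adjusted p = 0.039), and with 1 averaged value per gene the same change of -1.22 had an adjusted p of 0.046. Leaving out an array gave values from -1.42 to -1.02, none of which passed. The size of the change depends on the pseudocount, with -1.68 for a pseudocount of 1 and -0.67 for one of 64, neither of which passed. Socs1 has a single probe set, so no second reading was at hand.

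The promoter of Jak2 is shown because no other called gene could be matched in the RefSeq promoter table used here, and that of Socs1 because it holds interferon-type motifs, a choice made after seeing them. Each is the 250 bases before the start of the gene, on the gene's strand, in GRCm38.p6. Jak2 is at chr19:29251553-29251802 on the plus strand and Socs1 at chr16:10785537-10785786 on the minus strand. Capitals mark matches to 2 copies of TTTC with any 2 bases between them, the core of the interferon-stimulated response element, or to TTCNNNGAA, the gamma-activated sequence, searched on both strands.
Jak2: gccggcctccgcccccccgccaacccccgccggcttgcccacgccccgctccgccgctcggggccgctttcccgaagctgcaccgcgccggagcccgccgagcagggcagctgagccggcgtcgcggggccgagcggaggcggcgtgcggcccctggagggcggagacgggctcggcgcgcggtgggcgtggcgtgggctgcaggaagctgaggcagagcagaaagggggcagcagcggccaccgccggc
Socs1: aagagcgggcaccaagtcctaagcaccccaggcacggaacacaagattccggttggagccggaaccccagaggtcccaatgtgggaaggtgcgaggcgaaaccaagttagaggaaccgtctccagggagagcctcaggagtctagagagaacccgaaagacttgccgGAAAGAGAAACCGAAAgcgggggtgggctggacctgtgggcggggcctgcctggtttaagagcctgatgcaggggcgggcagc
The Socs1 window held 2 overlapping matches to the response element core, both on the strand opposite to the gene, covering the bases from 83 to 68 before the start. The Jak2 window held no match to either motif.

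Among the 27 promoters that the table gives for 23 of the 30 genes, 3 held the response element core (11.1%), against 2.98% of all 32851 promoters. They belong to Socs1, Stat2 and the downstream promoter of Stat4. The gamma-activated sequence was found in 2 of the 27 (7.41%), those of Socs3 and Ifnar2, against 7.02% of all promoters. The windows with 10 bases on either side are given for comparison with Socs1, with the match in capitals.
Stat2: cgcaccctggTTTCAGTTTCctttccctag
Stat4: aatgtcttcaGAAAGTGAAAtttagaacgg
Socs3: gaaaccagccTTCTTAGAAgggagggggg
Ifnar2: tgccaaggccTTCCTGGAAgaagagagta
These matches are descriptions of the letters in the windows only. Of the genes that hold the response element core, Stat2 and Stat4 had log2 changes of -0.10 and -0.082. The ratio of observed to expected CpG had a median of 0.694 over the promoters of these genes, against 0.374 over all promoters, and was 0.908 in Jak2 and 0.576 in Socs1.

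The other SOCS genes did not pass. Socs3, the inhibitor of G-CSF and interleukin-6 receptors, gave 47.7 and 18.6 units in KO and 16.01 and 19.2 in WT, so that a single KO array lay above the rest and the remaining 3 lay below the filter. Its log2 change was 0.48 with a 95% interval from -0.62 to 1.59, and 2 of its 3 probe sets were below the filter. Socs2, which restrains growth hormone signalling, gave 69.4 and 30.3 units in KO and 53.7 and 43.4 in WT, with overlap and a log2 change of -0.033. Of its 6 probe sets 3 lay above the filter. Socs4, which like Socs5 is known to act on the EGF receptor, gave 1334 and 1518 units in KO and 1439 and 1414 in WT, a log2 change of -0.0038 (95% interval -0.19 to 0.19). Cish, an inhibitor induced by STAT5, gave 185 and 191 units in KO and 237 and 183 in WT, and its log2 change was -0.14 with overlap.

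None of the 4 PIAS genes, which encode SUMO ligases that act on STATs, passed in the fit of genes. Pias1 gave 1436 and 1282 units in KO and 1226 and 1185 in WT, without overlap, and its log2 change was 0.17 (SE 0.085, adjusted p = 0.258). The probe sets of Pias1 differed among themselves in size but not in sign. One of them gave 651 and 631 units in KO and 388 and 458 in WT and was called higher in the fit of all probe sets (log2 change 0.58, SE 0.12, adjusted p = 0.0186). The remaining Pias1 probe sets gave 0.20 and 0.47, and all 4 had KO above WT on every array. Pias2, Pias3 and Pias4 had log2 changes of -0.092, 0.11 and -0.17. The further probe sets of Pias2 (0.17 and 0.20) and Pias4 (0.032 and 0.24) had the opposite sign, and none of them passed.

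Among all 71 probe sets of these genes above the filter, 4 were called higher and 0 lower in the limma fit of all probe sets, which is 5.63%. Of all 25576 probe sets tested there, 7.92% were called, 4.03% higher and 3.89% lower. An unadjusted p under 0.05 was found for 12 of the 71 (16.9%) and for 21.8% of all probe sets tested. The 4 were those of Socs5, Socs6 and Socs7 described above and that of Pias1. The Jak2 probe set had the same value as in the fit of genes, 0.30, and an adjusted p of 0.0568.

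**Figure D3:**
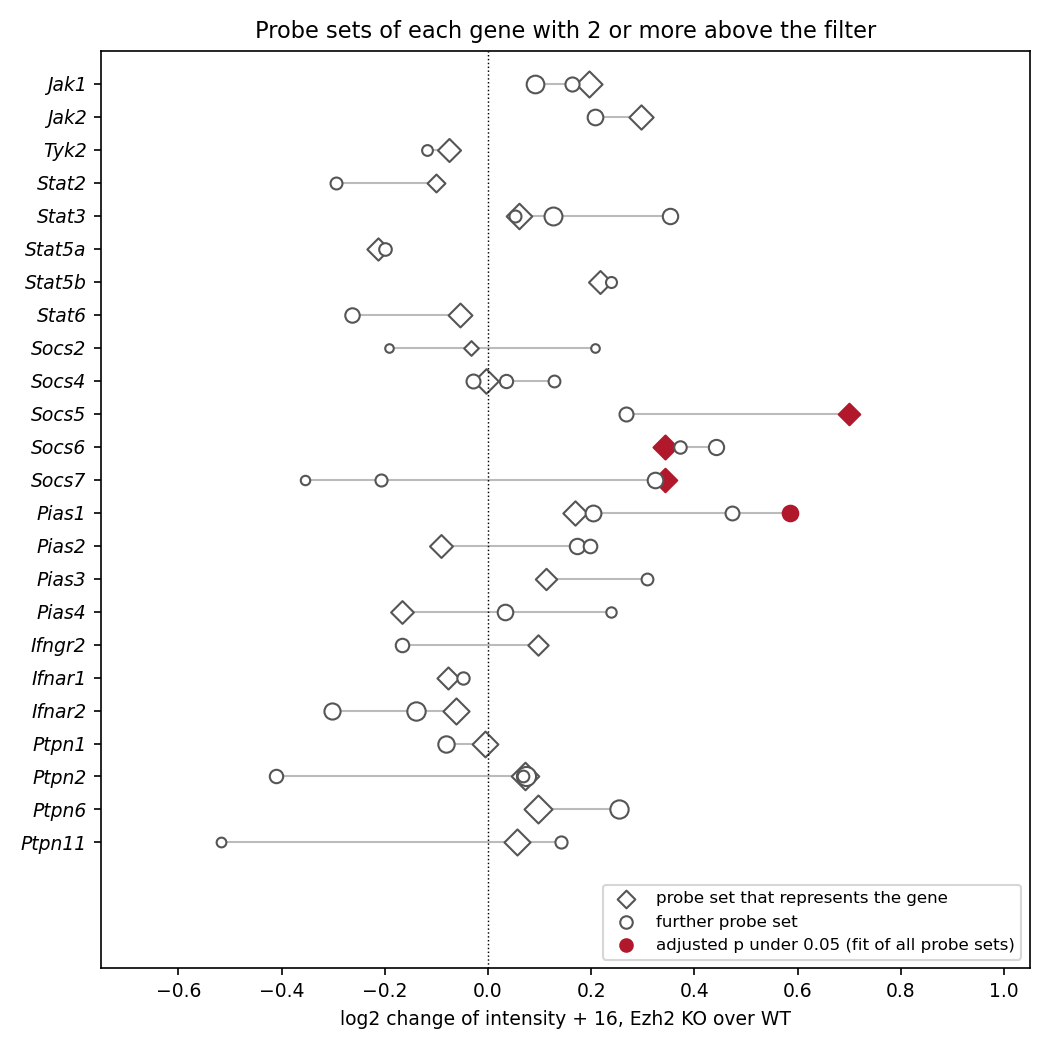
Log2 change, Ezh2 KO over WT, of every probe set above the filter for the 24 genes with at least 2 of them. Symbols grow with mean log2 intensity, diamonds represent the gene in the fit of genes, and filled symbols passed in the fit of all probe sets. The 3 probe sets of Socs6 and the 4 of Pias1 lie right of 0, while those of Socs7 lie on both sides.

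The interferon receptor chains gave no called difference, with log2 changes from -0.078 to 0.096 and 95% intervals within -0.34 and 0.41. Ifngr1, the ligand-binding chain for interferon-gamma, gave 5881 and 5875 units in KO and 5973 and 5886 in WT, a log2 change of -0.012 (95% interval -0.14 to 0.12). Ifngr2, its partner, gave 308 and 309 units in KO and 277 and 298 in WT, without overlap (log2 change 0.096, SE 0.14, adjusted p = 0.746). Ifngr2 has a second probe set of opposite sign, -0.17. Ifnar1 gave 515 and 534 units in KO and 602 and 511 in WT, with overlap. Ifnar2, which with Ifnar1 forms the receptor of type I interferons, gave 2629 and 2618 units in KO and 2794 and 2687 in WT, without overlap, and its log2 change was -0.062. The 3 probe sets of Ifnar2 had values from -0.30 to -0.062, and none of them passed.

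The phosphatases gave no called difference either, with log2 changes from -0.0067 to 0.097 and every 95% interval between -0.15 and 0.24. Ptpn6 encodes SHP-1, an inhibitor of cytokine signals in blood cells. It gave 6363 and 5943 units in KO and 5868 and 5635 in WT, without overlap (log2 change 0.097, SE 0.064, adjusted p = 0.407). Ptpn1, which dephosphorylates JAK2 and TYK2, gave 2289 and 2275 units in KO and 2272 and 2314 in WT, a log2 change of -0.0067. Ptpn2, which acts on JAK1 and on STATs, had a value of 0.073, and Ptpn11, the SHP-2 phosphatase that carries cytokine signals towards Ras, 0.056. Further probe sets of these genes lay farther from 0 without passing, at 0.25 for Ptpn6, -0.41 for Ptpn2 and -0.52 for Ptpn11, the last with 47.5 and 13.1 units in KO and 72.4 and 26.8 in WT.

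Further genes of the pathway were read from lists chosen with earlier results of these data known, so their counts are no independent evidence of direction. Of 24 tested cytokine receptor genes whose products use JAKs, 1 was higher and 3 were lower in KO. That is 16.7% called, against 11.6% of all tested genes, and the median log2 change was 0.0054. Il3ra, the interleukin-3 receptor alpha chain, gave 84.3 and 70.8 units in KO and 150 and 189 in WT, a log2 change of -0.98 (adjusted p = 0.0285). Il10rb, a chain shared by interleukin-10 family and interferon-lambda receptors, fell 1.31-fold, and Crlf2, a receptor chain for thymic stromal lymphopoietin, 1.27-fold. Ifnlr1, the specific chain of the interferon-lambda receptor, rose 1.95-fold, to 147 and 163 units in KO against 83.8 and 61.0 in WT. The Il3ra call was lost without KO replicate 2 (-0.88), WT replicate 1 (-1.13) or WT replicate 2 (-0.83). The Crlf2 call was lost without KO replicate 1 (-0.24), WT replicate 1 (-0.30) or WT replicate 2 (-0.38), and that of Ifnlr1 without KO replicate 1 (1.03), KO replicate 2 (0.89) or WT replicate 2 (0.78).

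Of 23 tested further regulators, 2 were higher and 4 lower, with a median of 0.034. That is 26.1% called, against 11.6% of all tested genes. Nmi, an interferon-inducible protein that binds STATs, gave 757 and 809 units in KO and 1543 and 1245 in WT (1.76-fold lower, adjusted p = 0.00139). Irf9, the DNA-binding partner of STAT2, gave 665 and 688 units in KO and 846 and 863 in WT (log2 change -0.33, adjusted p = 0.0452). Irf9 is named after its value was seen. Its adjusted p lies close to the threshold, and the alternative fits were not read for this gene. The adaptor Sh2b1, an activator of JAK2, rose 1.46-fold and its relative Sh2b2 fell 1.36-fold, while the inhibitory receptor Sirpa, which recruits SHP-1 and SHP-2, rose 1.35-fold. Averaging the probe sets of a gene gave 0.067 for Sh2b1, in place of 0.55, and 0.13 for Sh2b2, in place of -0.44, neither of them called. Sirpa missed the threshold with averaged probe sets (0.35) and with median centring (0.33). The Sh2b2 call was also lost without KO replicate 2 (-0.36), WT replicate 1 (-0.46) or WT replicate 2 (-0.43).

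Genes known as STAT targets moved in both directions, with 6 of 25 higher and 3 lower (36% called) and a median of 0.097. Of all tested genes 11.6% were called, 5.55% higher and 6.01% lower. Pim1, a survival kinase induced by STAT5, gave 493 and 540 units in KO and 1121 and 1251 in WT (2.26-fold lower, adjusted p = 8.93e-05). Bcl3 fell 1.71-fold, a call lost without KO replicate 1 (-0.52), WT replicate 1 (-0.67) or WT replicate 2 (-0.88). The cell cycle inhibitor Cdkn1a rose 1.99-fold and Id1 rose 1.58-fold. Of the inhibitors known to be induced by STATs, Cish, Socs2 and Socs3 had overlapping groups and Socs1 had KO below WT without passing, as given above.

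Of 36 tested interferon-stimulated genes 20 were lower and 0 higher (55.6% called), with a median of -0.65. Of all tested genes 6.01% were called lower and 5.55% higher. Gbp2 gave 26.5 and 34.1 units in KO and 456 and 400 in WT, and Nlrc5 41.8 and 56.6 in KO and 462 and 445 in WT. Cxcl9 gave 3.00 and 4.14 units in KO and 88.0 and 127 in WT, and Gbp6 2.37 and 12.5 in KO and 113 and 129 in WT. Both were called lower, but their KO values lay below the filter, which they passed through WT, so no fold is given. The Cxcl9 call was lost without WT replicate 2 (-2.41, adjusted p = 0.0572). Probes for the Gbp genes may also read their near-identical paralogs. The 4 chains of the type I and interferon-gamma receptors, the 4 JAKs and the 6 STATs had log2 changes between -0.21 and 0.30 in the fit of genes. Their further probe sets reached -0.30 (Ifnar2) and 0.35 (Stat3), and none of them was called. Of the interferon genes themselves 3 were tested and none passed: Ifnz had a log2 change of -0.29 and Ifna1 of -0.16, and Ifnb1 gave 31.0 and 50.7 units in KO and 25.7 and 64.7 in WT.

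**Figure D4:**
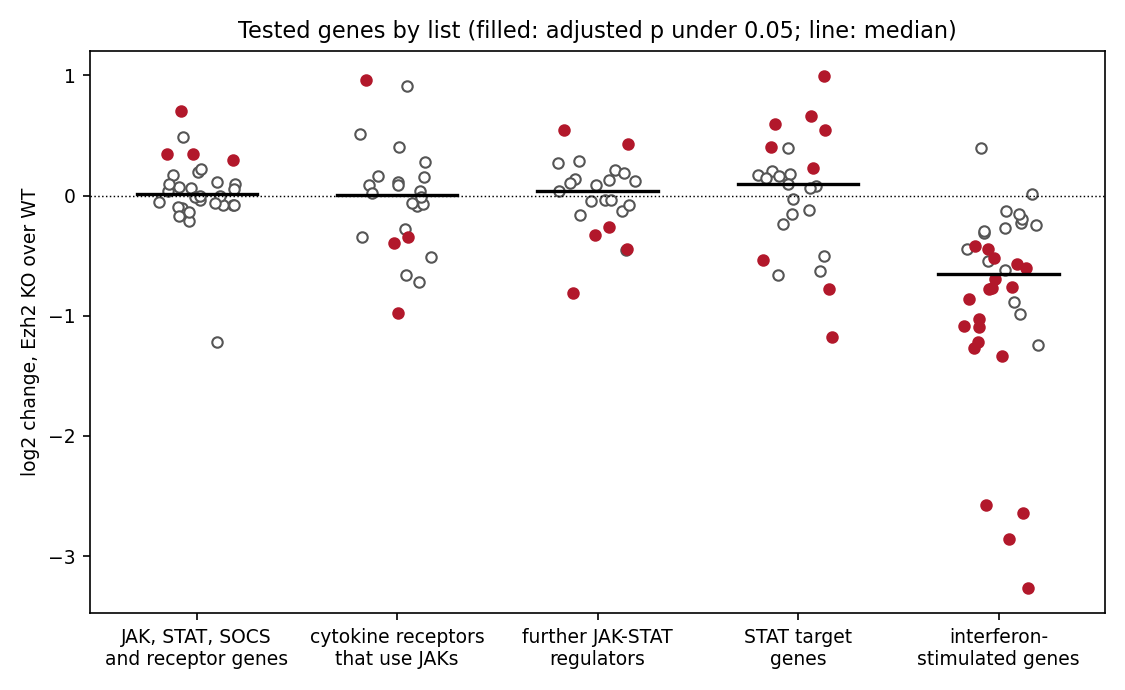
Log2 change, Ezh2 KO over WT, of each tested gene in the 30 JAK, STAT, SOCS and receptor genes and in 4 further lists, with the median as a line and called genes filled. The first list centres on 0.017 and the interferon-stimulated genes on -0.65, where no gene was called higher.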

How the data were processed

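The authors deposited 1 linear intensity per probe set and array. Per the submitters' processing notes the authors made them with Affymetrix Expression Console. Its version and algorithm are not given in the sources used here. From the values, every array had a mean of 500.0 after trimming 2% at each end, so any difference in total mRNA per cell is hidden.

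The platform's annotation named 34945 of 45101 probe sets with 1 gene symbol and 932 with several, while 9160 were not in the gene table and 64 were controls. Of the 34945, 34741 matched RefSeq genes of GRCm38.p6 by gene identifier. The probe set with the highest mean of log2(intensity + 16) stood for its gene, and of 18193 genes the 13916 above the 30th percentile of all non-control probe sets (19.96 units) were tested. No detection calls were used, so values near 19.96 cannot be told from background.

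The test was limma (3.58.1, R 4.3.3) with lmFit and eBayes on log2(intensity + 16). The prior variance followed intensity, and p-values were adjusted by Benjamini-Hochberg over all genes at a threshold of 0.05. Adding 16 makes the folds of dim genes too small. A second fit took all 25576 single-symbol probe sets above the filter. The number of arrays limits the precision. The alternatives were other normalizations, filters, pseudocounts, prior variances, averaged probe sets, a replicate block and leaving out each array.

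Members and lists were chosen with earlier results of these data known. By the rule for named genes, each called member and, in a role without one, the member of largest change got full statistics, and each further list up to 4 called genes of largest change, or 2 where none was called. Values of other members were added as description. Promoters are from RefSeq, GRCm38.p6, and could not be matched for Socs2, Socs5, Socs6, Socs7, Pias2, Pias4 and Ptpn2.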

Additional observations from a re-analysis of the deposited data

How the results depend on the processing

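With 2 arrays per group, all calls rest on a prior variance shared across genes. A single prior variance, in place of one that follows intensity, gave limma 0 called genes, 0 of the 30 pathway genes and 0 of their probe sets, although 2595 genes had an unadjusted p under 0.05. Leaving out 1 array, where the lone array is assumed to vary like the other group, gave 875 to 1641 called genes, 1 to 3 of the pathway genes and 1 to 2 of their probe sets. Median centring gave 2 pathway genes and 1 probe set. Averaged probe sets gave 1028 genes in all and 2 pathway genes, and no filter gave 2 pathway probe sets. The replicate number as a block gave 2719 genes in all, 6 pathway genes (Jak1 and Socs1 added, adjusted p 0.0414 and 0.033) and 7 pathway probe sets. Replicate 1 minus 2 correlated at 0.041 between the groups. No label says what samples of the same number share, and a shared batch or day was not tested. The cause of these shifts was not tested. Socs5 passed in every alternative but the single prior variance, with log2 changes from 0.48 to 0.76. Without 1 array the directions of small uncalled values turned, as shown by ranges of -0.054 to 0.13 for Jak3, -0.18 to 0.025 for Tyk2, -0.20 to 0.0011 for Stat2, -0.28 to 0.11 for Stat4, -0.47 to 0.41 for Socs2, -0.096 to 0.088 for Socs4, -0.31 to 0.038 for Cish, -0.19 to 0.037 for Ifnar1, -0.020 to 0.0063 for Ptpn1, -0.040 to 0.15 for Ptpn11 and -0.65 to 0.34 for Ifna1. Quantile normalization turned Jak3 (-0.026), Socs4 (0.015), Ifngr1 (0.021) and Ptpn1 (0.000597). Median centring turned Jak3 (-0.059), Stat3 (-0.036), Ifngr2 (-0.00093), Ptpn2 (-0.024), Ptpn6 (-0.00039) and Ptpn11 (-0.041). Averaged probe sets turned Socs4 (0.033), Pias2 (0.093), Pias4 (0.035), Ifngr2 (-0.035), Ptpn2 (-0.050), Ptpn11 (-0.11) and Sh2b2 (0.13). With no filter Il3ra, Ifnlr1, Sh2b2 and Bcl3 lost their calls, with adjusted p from 0.0751 to 0.103. Pseudocounts of 1 and 64 gave -4.56 and -1.34 for Cxcl9 and -4.17 and -1.37 for Gbp6. Signal near background limits Socs1, Socs2 and Socs3.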
